A study of Mus musculus with 2 samples.

Results

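The metabotropic glutamate receptors are the G-protein-coupled receptors for glutamate, and 6 of their genes (Grm2, Grm3, Grm4, Grm5, Grm7 and Grm8) were taken by symbol from the 55536 genes of the deposited tables. Total RNA was measured in 2 libraries of hippocampus from female B6CASTF1/J mice aged 10 days, a first-generation cross of a laboratory strain with a strain derived from wild mice. The libraries were biological replicates 1 and 2 of 1 group, each from 300 ng of RNA of a pool of 3 mice with different animal numbers, and the labels speak of a hippocampal layer that they do not name. Both were stranded, depleted of ribosomal RNA and spiked with the synthetic ERCC RNAs. The labels name no treatment and the same strain, sex and age for both, so the receptors are described by their levels, their transcripts and the difference between the libraries.

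Each receptor binds glutamate in a large extracellular domain, works as a dimer and passes the signal through its membrane-spanning helices to a G protein. Group I receptors, here Grm5, couple to Gq and G11 and lie mainly on the postsynaptic side of excitatory synapses, where they drive phospholipase C and calcium release. Group II (Grm2 and Grm3) and group III (Grm4, Grm7 and Grm8) couple to Gi and Go and mostly lower transmitter release from the presynaptic side, and Grm3 and Grm5 are also known from astrocytes.

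The receptors of a group share their exon plan, and their coding tails differ, which is why a few of those stretches are shown. All sequences are GENCODE M21 transcript sequence of the reference genome, not of the hybrid's own alleles, coordinates are on mouse build mm10, and each runs 5′ to 3′ on the strand of its gene. The principal splice forms of Grm5 differ by an exon of 96 bases, or 32 codons, at chr7:88116193-88116288 on the plus strand, which Grm5-204 holds and Grm5-202 lacks. It is shown in lower case throughout.
Grm5 insert exon: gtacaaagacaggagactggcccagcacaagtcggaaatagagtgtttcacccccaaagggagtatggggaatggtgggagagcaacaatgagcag
The insert lengthens the intracellular tail from which Grm5 binds Homer scaffolds.

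The group II receptors end in a last coding exon of equal length. In the following pair capitals mark the 46 of 74 positions, stop codon included, that are identical in both. Grm2-201 lies at chr9:106645018-106645091 and Grm3-201 at chr5:9485768-9485841, both on the minus strand.
Grm2-201 tail: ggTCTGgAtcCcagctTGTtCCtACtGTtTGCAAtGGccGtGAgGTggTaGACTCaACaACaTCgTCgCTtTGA
Grm3-201 tail: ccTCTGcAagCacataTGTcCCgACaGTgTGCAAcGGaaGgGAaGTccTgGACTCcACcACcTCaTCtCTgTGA

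The group III tails are shorter, and capitals mark the 20 of 50 positions identical in all 3. They lie at chr17:27426784-27426833 on the minus strand (Grm4-201), chr6:111566018-111566067 on the plus strand (Grm7-202) and chr6:27275645-27275694 on the minus strand (Grm8-201).
Grm4-201 tail: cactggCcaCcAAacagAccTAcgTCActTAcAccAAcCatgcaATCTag
Grm7-202 tail: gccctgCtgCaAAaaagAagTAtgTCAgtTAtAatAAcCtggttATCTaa
Grm8-201 tail: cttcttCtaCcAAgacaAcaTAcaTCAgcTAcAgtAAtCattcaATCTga
The last codon before the stop codon is the same in all 3 tails.

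Grm7 and Grm8 each have a second annotated tail, shown here with the stop codon in capitals. Grm7-201 takes another last exon, at chr6:111501510-111501580 on the plus strand. Grm8-202 reads on past the exon from which Grm8-201 splices, at chr6:27285685-27285734 on the minus strand.
Grm7-201 tail: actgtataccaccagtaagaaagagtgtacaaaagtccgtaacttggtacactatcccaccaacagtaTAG
Grm8-202 tail: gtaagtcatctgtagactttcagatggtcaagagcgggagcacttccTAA
The Grm8-202 tail starts at the place where Grm8-201 splices out, and begins with gt.

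Coding exon lengths followed the pharmacological groups. Grm4-201 and Grm7-202 had 10 coding exons each, and those of 217, 155, 141, 201, 936, 247 and 47 bases had the same length in both. Grm8-202 had 9 coding exons, among them the 936-base exon, and its last exon of 294 bases takes the place of the 247- and 47-base exons. The group II genes had 5 coding exons with a central exon of 1076 bases in Grm2 and 1067 in Grm3, and Grm5-202 had 8.

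**Figure D1:**
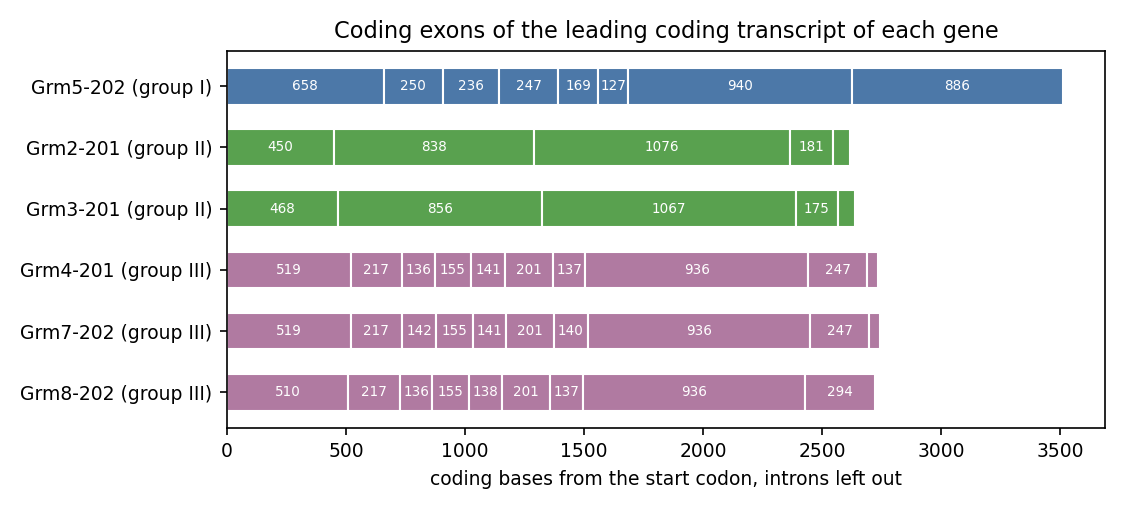
Coding exons of the leading full-length coding transcript of each receptor gene, drawn to scale in bases with introns left out; colours mark groups I, II and III, and the longer exons carry their length. Grm4-201, Grm7-202 and Grm8-202 share the 936-base exon, and Grm2-201 and Grm3-201 have 5 coding exons each.

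The coding sequences were more alike within a group than between groups. In global alignments of the leading coding transcripts, 68.0% to 70.2% of aligned bases were identical in the 4 pairs of the same group and 60.1% to 63.7% in the 11 pairs of different groups. None of the 15 pairs, 0 of 15, shared a stretch of 31 identical bases. The gene spans differed widely: Grm2 covered 13.0 kb at chr9:106643095-106656082, and Grm7 covered 922 kb at chr6:110645581-111567230. Grm8 (860 kb, chr6:27275119-28135178), Grm5 (551 kb, chr7:87584168-88134907), Grm3 (240 kb, chr5:9485541-9725170) and Grm4 (99.0 kb, chr17:27422387-27521403) lay between. Annotated exons made up 37.7% of the span of Grm2 and 0.639% of that of Grm7.

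The libraries held 29858328 and 32275110 expected counts, estimated reads with no normalization, of which ERCC spike-ins took 0.341% and 0.393%. Values are from the tables estimated from transcriptome alignments unless they are named as read-based, that is, estimated directly from the reads. Hippocampal and astrocyte markers were present in both: the dentate granule cell list (Prox1, Calb1 and C1ql2 among 4) summed to 86.3 and 108 TPM, a level corrected for transcript length and scaled to a fixed total per library, CA1 to 164 and 164, CA3 to 163 and 204, and astrocytes (Slc1a2, Slc1a3 and Aldoc among 5) to 1215 and 1365. Markers of other tissue were present as well, with the thalamus and habenula list at 56.1 and 37.6 TPM and the neocortex and subiculum list at 116 and 88.8. The cerebellum list, whose granule cells are a main site of Grm4, had 0 of 3 genes at 1 TPM and summed to 0.67 and 0.45. In bulk tissue, fewer cells of a type and less RNA per cell cannot be told apart.

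All 6 receptor genes were measured above 1 TPM in both libraries, and their levels spread over 27.1-fold. Levels in TPM are per length and can be compared between genes. Grm5, the group I receptor, had 103.84 TPM in replicate 1 and 99.33 in replicate 2, a mean of 101.6 ± 3.19 (SD, n = 2), from 11522 and 12312 expected counts. It was the highest of the 6 in both libraries and above 96.3% and 96.1% of the 21938 nuclear protein-coding genes.

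Of group II, Grm3 had 43.61 and 36.97 TPM, 40.3 ± 4.70, from 2658 and 2472 counts. Grm2, known in the hippocampus from the mossy fibres of dentate granule cells, had 16.76 and 14.31 TPM, 15.5 ± 1.73, from 1243 and 1115 counts. Grm3 exceeded Grm2 in both libraries without overlap, and replicate 1 was the higher library for both. They stood above 88.6% and 86.5% (Grm3) and 71.5% and 69.5% (Grm2) of protein-coding genes.

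Of group III, Grm7, a receptor of low glutamate affinity at presynaptic active zones, had 34.07 and 29.68 TPM, 31.9 ± 3.10, from 2543 and 2517 counts. Grm4 had 7.06 and 5.65 TPM, 6.36 ± 0.997, from 611 and 538 counts. Grm8 had 4.31 and 3.1 TPM, 3.71 ± 0.856, from 269 and 178 counts. The 3 genes did not overlap, and Grm8 was the lowest receptor of the 6 in both libraries, above 50.7% and 48.6% of protein-coding genes. Among the 13010 protein-coding genes at 1 TPM or more in both libraries, the median was 15.85 and 14.9 TPM, close to Grm2.

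**Figure D2:**
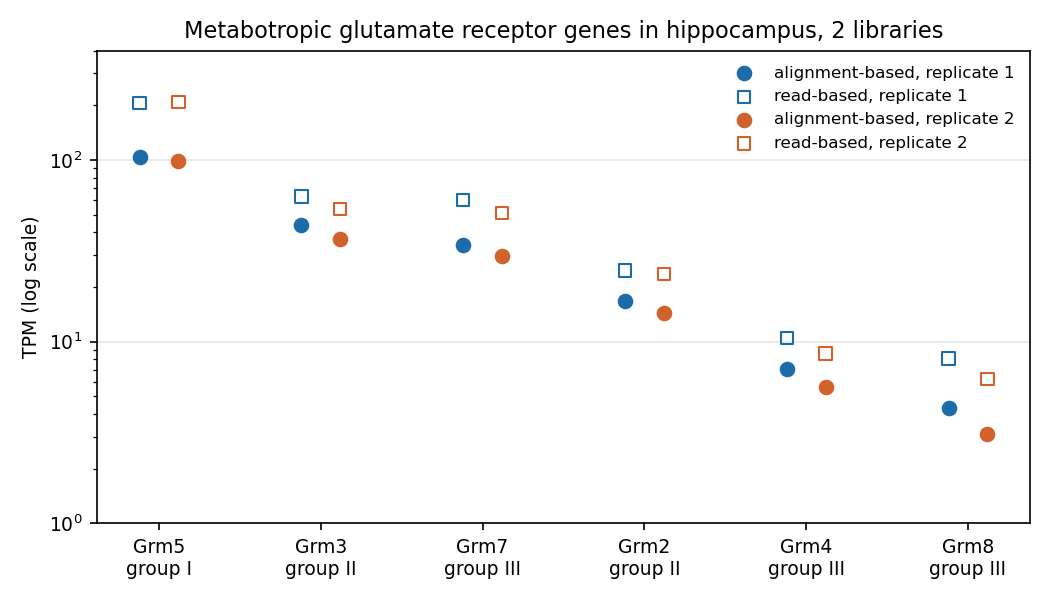
Level of each receptor gene in TPM on a log axis, by library; filled circles are the alignment-based tables and open squares the read-based tables, with replicate 1 in blue and replicate 2 in orange. Both tables place Grm5 highest and Grm8 lowest in each library, and Grm3 and Grm7 lie closest together in the read-based tables.

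The order Grm5, Grm3, Grm7, Grm2, Grm4, Grm8 was the same in both libraries. Ratios were taken within a library as log2 of TPM plus 0.1 and called different where both had 1 sign and the mean exceeded 2 SD. By this yardstick all 15 of 15 pairs differed, although 2 libraries allow no exact sign-flip p below 0.5. The SD here reflects only the difference between the 2 libraries, and how often pairs of other genes pass was not tested. Grm5 exceeded its neighbour Grm3 by 1.34 ± 0.12 on the log2 scale, or 2.53-fold. Grm3 exceeded Grm7 by 0.34 ± 0.03, or 1.26-fold, the smallest step of the order.

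Below those, Grm7 exceeded Grm2 by 1.03 ± 0.02, or 2.05-fold, Grm2 exceeded Grm4 by 1.28 ± 0.06, or 2.43-fold, and Grm4 exceeded Grm8 by 0.77 ± 0.10, or 1.71-fold. Each receptor was thus separated from the next by more than the spread between libraries. In the read-based tables the order held in both libraries, with mean levels of 207 TPM for Grm5, 58.4 for Grm3, 55.7 for Grm7, 24.1 for Grm2, 9.56 for Grm4 and 7.14 for Grm8, so Grm3 and Grm7 lay closer there, at a log2 ratio of 0.069 ± 0.011. Grm5 was 2.04 times its alignment-based level in that table, against a median of 1.57 over protein-coding genes and quartiles of 1.46 and 1.78.

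By group, the single group I gene was the largest in both libraries. Group I had 49.5% of the summed TPM of the 6 genes in replicate 1 and 52.5% in replicate 2, group II 28.8% and 27.1%, and group III 21.7% and 20.3%. Group I exceeded group II by 0.87 ± 0.12 on the log2 scale and group III by 1.28 ± 0.13, and group II exceeded group III by 0.41 ± 0.004. Grm6, the receptor of retinal bipolar cells and no member of the 6, had 0 counts in both libraries.

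The genes differed in how far a single transcript accounted for them. A transcript share is its TPM as a percent of the TPM of its gene, as deposited. Grm3 has a single annotated transcript. Grm4-201, of 912 codons, held 91.77% and 89.82% of Grm4, so 1 form stood far above the rest in both libraries. Full-length coding transcripts together held 99.4% of Grm2, 92.7% of Grm4, 81.7% of Grm5, 85.7% of Grm7 and 60.0% of Grm8, as means of the libraries.

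Both Grm5 coding forms were present in quantity. Grm5-202, without the insert and of 1171 codons, held 46.40% and 47.02% of the gene, and Grm5-204, with the insert and of 1203 codons, held 34.01% and 36.0%. The shares of the pair did not overlap between forms and hardly moved between libraries. As a share of the full-length coding transcripts, the form with the insert was 42.3% and 43.4%, or 42.8% ± 0.755 (SD, n = 2), and the read-based tables gave 47.2% and 42.9%. As background, the form without the insert is known to prevail in the brain of young rodents and the form with it in adults.

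The 96-base exon is the whole of what Grm5-204 holds and Grm5-202 lacks, while Grm5-202 has 3643 bases that Grm5-204 lacks, mostly a longer 3′ end. The split therefore rests on the annotated 3′ ends as well as on the insert, and reads across the exon were not analysed here. Grm5-205, a processed transcript of 551 bases with no annotated coding sequence, held 12.17% and 12.11% of the TPM of Grm5 but 1.02% and 1.00% of its counts. In the read-based tables it held 29.6% and 30.9% of the gene, so that short transcript took a larger part of Grm5 there.

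Grm7-202, of 915 codons and with the group III tail shown above, held 60.51% and 71.72% of Grm7. Grm7-201, of 922 codons and with the other tail, held 23.19% and 16.04%. The form with the shared tail was the higher in both libraries, and among full-length coding transcripts Grm7-201 was 27.7% and 18.3%. Here the libraries differed by more than for Grm5, with an SD of 6.67 percentage points.

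Grm2 was split between Grm2-201, of 872 codons, at 60.68% and 54.76%, and Grm2-203, of 594 codons, at 38.75% and 44.55%. Grm2-203 is annotated as Grm2-201 without 834 bases, or 278 codons, inside the 1076-base exon, at chr9:106647271-106648104. That exon encodes most of the membrane-spanning helices in this family. The missing stretch begins with GT and ends with AG and has its edges at these places on the minus strand, chr9:106648090-106648119 and chr9:106647256-106647285, with the stretch in capitals.
Grm2-201 start of the stretch: tatcgctaccagaagGTAGGCTACTGGGCA
Grm2-201 end of the stretch: CTCTATGCCTTCAAGacccgcaagtgcccg
The full form was the higher in both alignment-based libraries. By counts Grm2-203 held only 21.7% and 26.1%, and it has 2 bases that Grm2-201 lacks against 2602 that only Grm2-201 has, so little sequence of its own supports it.

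Grm8 was the most divided gene and the thinnest in counts. Grm8-202, with the read-through tail, held 42.58% and 34.86%, Grm8-201, with the group III tail, held 17.93% and 24.59%, and both encode 908 codons. Grm8-204, with an incomplete coding sequence, held 23.91% and 37.63%, from 24.25 and 30.13 expected counts. Which coding transcript led by TPM was not the same in both libraries: Grm8-202 in replicate 1 and Grm8-204 in replicate 2. By counts Grm8-202 led in both, with 53.0% and 51.7% of the gene against 9.02% and 16.9% for Grm8-204. In replicate 2 their deposited 95% credibility intervals overlap, at 0.497 to 1.37 TPM for Grm8-202 and 0.475 to 1.85 for Grm8-204. Among full-length coding transcripts Grm8-201 was 29.6% and 41.4%, 35.5% ± 8.30, and it has 0 bases that Grm8-202 lacks within its exons, so only its splice joins tell it apart.

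**Figure D3:**
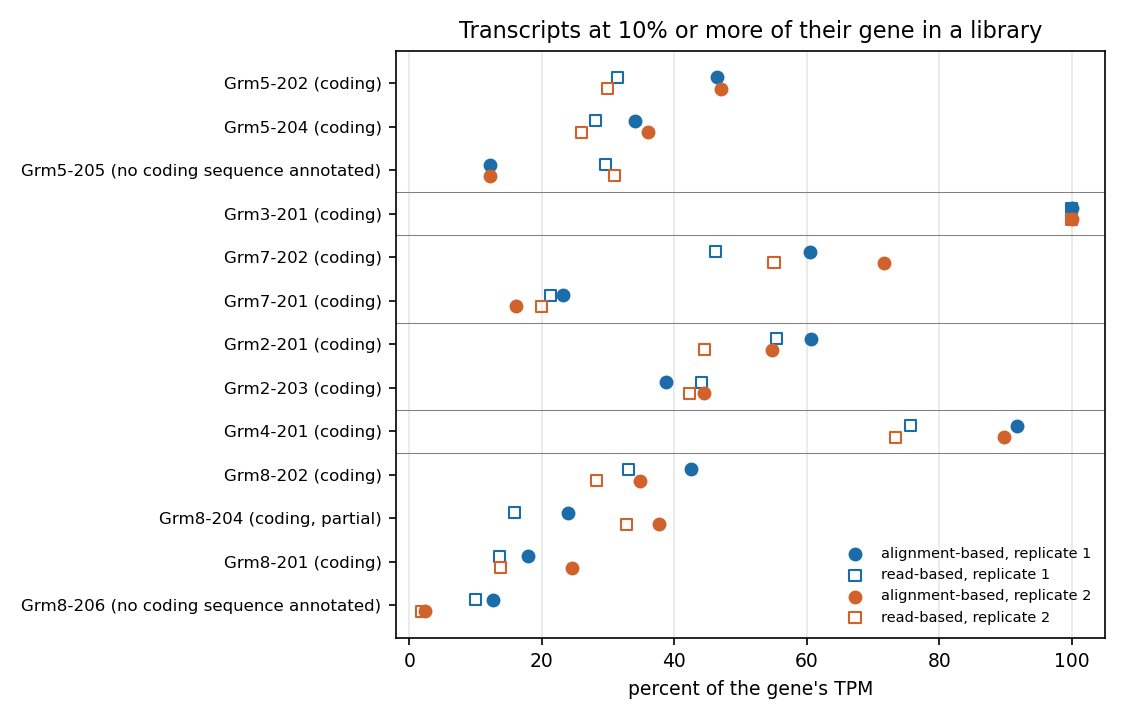
Transcripts with 10% or more of the TPM of their gene in a library, as a percent of the gene; filled circles are the alignment-based tables and open squares the read-based tables, with replicate 1 in blue and replicate 2 in orange. Grm4-201 and Grm3-201 hold most or all of their genes, Grm5-205 is higher in the read-based tables, and Grm8-206 is higher in replicate 1.

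Replicate 2 was then compared with replicate 1, with the exact conditional binomial test (two-sided) of each gene's rounded expected counts, scaled by TMM factors and adjusted by Benjamini-Hochberg over 20544 genes. With 1 library on each side the test covers counting error only and compares these pools, not conditions. With the rule of a log2 ratio of at least 1 and an adjusted p below 0.05, 0 of 6 receptors were called, against 2.83% of all genes tested. Without the limit on size, 4 of 6 were lower in replicate 2, against 11.5% of genes tested, and 1 was higher, against 15.7%. At an unadjusted p of 0.05, 5 of 6 passed, against 35.8% of genes tested. The median log2 ratio was −0.16 over the receptors, −0.01 over all genes tested and 0.034 over protein-coding genes that had at least 100 counts. The sets differ in depth: genes tested needed 10 counts in sum, while each receptor had 178 or more per library. A small ratio passes more easily at high counts, so these shares are not matched for depth.

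Grm8 differed most, by −0.63 ± 0.14 (log2, counting SE), 1.55-fold lower in replicate 2 with an adjusted p of 5.1e-05. Its ratio was larger in size than that of 97.9% of 13032 protein-coding genes that had at least 100 counts. Part of it lay in Grm8-206, a processed transcript with no annotated coding sequence, which had 52.7 and 7.6 expected counts. Its deposited 95% credibility intervals of 0.385 to 0.703 and 0.0273 to 0.140 TPM do not overlap. Another part lay in the coding transcript Grm8-202, with 142.44 and 92.07 counts and overlapping intervals of 0.746 to 2.14 and 0.497 to 1.37 TPM. Grm8-201 (43.6 and 47.21 counts) and Grm8-204 (24.25 and 30.13) had slightly more in replicate 2. Without Grm8-206 and Grm8-207, which is of the same class, Grm8 had 210 and 169 counts and a log2 ratio of −0.35 ± 0.15. The adjusted p was then 0.071, no longer below 0.05. Both transcripts were lower in replicate 2 and were left out after their values were seen, so a smaller ratio was bound to follow.

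The other receptors of groups II and III moved less. Grm4 was lower in replicate 2, with a log2 ratio of −0.22 ± 0.09 (adjusted p = 0.043), Grm2 with −0.19 ± 0.06 (adjusted p = 0.0076) and Grm3 with −0.14 ± 0.04 (adjusted p = 0.0037). Grm7 did not pass the test, at −0.048 ± 0.041 (adjusted p = 0.43). Grm4 missed the threshold with DESeq2 size factors (adjusted p = 0.055) and without the filter on counts (adjusted p = 0.072), and Grm7 passed it with total counts (adjusted p = 0.0097). Grm5 was higher by 0.062 ± 0.019 (adjusted p = 0.0051) on TMM-scaled counts, but this sign turned to −0.064 as a ratio of TPM, to −0.016 with scaling by total counts and to −0.22 with scaling by ERCC spike-ins. Under ERCC scaling, which moved the median of all genes by −0.28, all 6 were lower at an adjusted p of 0.05, as were 52.4% of genes tested, while 1.86% were higher.

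The sums of several marker lists differed between the same libraries, though the genes of a list did not always move together. Markers of myelinating oligodendrocytes (Mbp and Mag among 5) summed to 153 TPM in replicate 1 and 490 in replicate 2, with 5 of 5 called higher, where 2.83% of all genes were called in either direction. The thalamus and habenula list (Slc17a6, Prkcd and Tcf7l2 among 4) summed to 56.1 and 37.6 TPM with 0 of 4 called. Slc17a6 (log2 ratio −0.83) and Tcf7l2 (−0.64) were lower at an adjusted p of 0.05, while Prkcd (0.14) and the remaining gene (−0.13) did not pass. The neocortex and subiculum list (Fn1, Etv1 and Tbr1 among 4) summed to 116 and 88.8 with 0 of 4 called. Here Fn1 (−0.58) and Tbr1 (−0.22) were lower at that threshold, while Etv1 (−0.098) and the remaining gene (0.066) did not pass. The choroid plexus list summed to 431 and 680 TPM with 0 of 3 called, mostly from Ttr (422.39 and 670.07), while Folr1 had 7.51 and 7.71. Microglia summed to 70.5 and 86.4 with 0 of 4 called. There Csf1r had 28.45 and 40.15 TPM, while P2ry12 (23.07 and 24.5) and Cx3cr1 (13.83 and 13.94) hardly moved. Glutamatergic neurons summed to 1245 and 1547 with 0 of 4 called, and Neurod6 had 97.51 and 90.77. Interneuron markers summed to 319 and 354 TPM, with 1 of 4 called higher (Pvalb), and oligodendrocyte precursors to 149 and 159. The part of these markers in the receptor ratios was not tested.

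**Figure D4:**
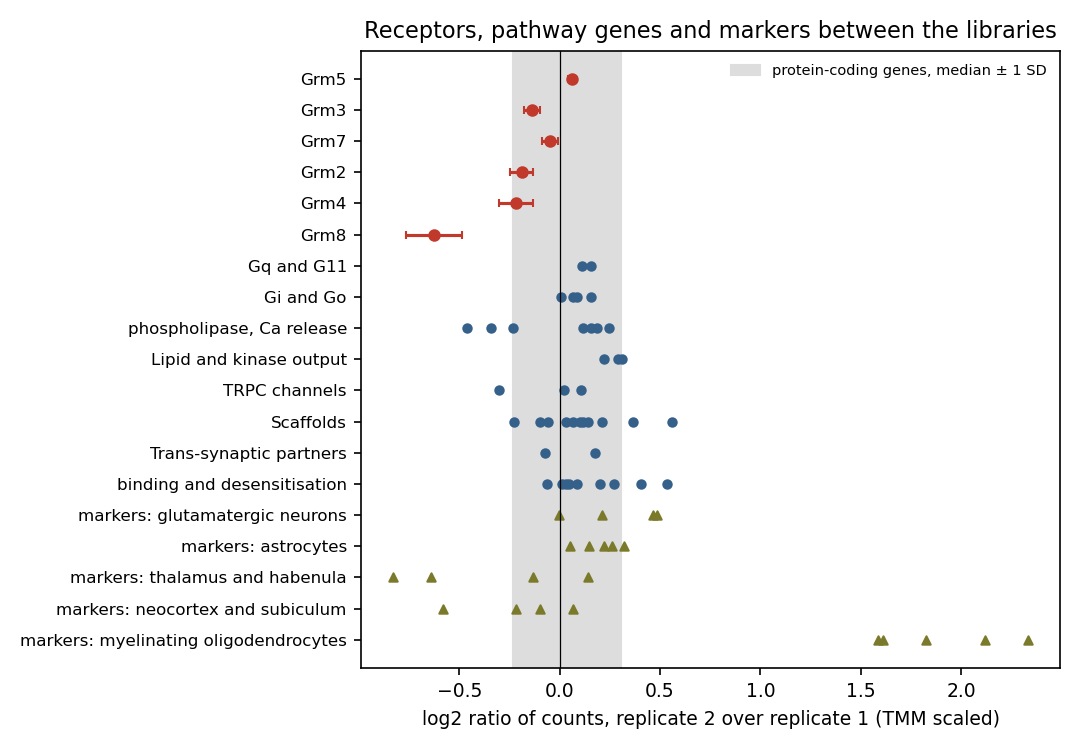
Log2 ratio of TMM-scaled counts, replicate 2 over replicate 1, for the 6 receptors (red, bars are counting SE), the genes of each pathway role (blue) and 5 marker lists (triangles); grey is the median ± 1 SD of protein-coding genes that had at least 100 counts. Grm8 lies lowest of the receptors at −0.63, and all 5 myelinating oligodendrocyte markers lie above 1.

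The 41 genes of the signalling pathway were compared in the same way, and 40 of them had 1 TPM or more in both libraries. None was called at a log2 ratio of 1, 0 of 41, against 2.83% of all genes tested. At an adjusted p of 0.05, 3 of 41 were lower in replicate 2, against 11.5% of genes tested, and 21 of 41 were higher, against 15.7%. As for the receptors, the shares over all genes tested are not matched for depth. The median log2 ratio of the pathway genes was 0.11, where the receptors had −0.16. With ERCC scaling the split was 31 lower and 3 higher, against 52.4% and 1.86% of all genes, so these directions depend on the scaling.

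Of the G proteins that Grm5 uses, Gnaq had 85.75 and 85.2 TPM and Gna11 54.36 and 53.03, both below the whole Grm5 gene in each library. The full-length coding transcripts of Grm5 alone had 83.5 and 82.47 TPM, slightly below the whole Gnaq gene. The Gi and Go subunits that serve groups II and III were led by Gnao1 at 394.44 and 358.77 TPM, followed by Gnai2 at 115.22 and 113.21, Gnai1 at 88.24 and 91.77 and Gnai3 at 23.96 and 23.42. Gnao1 was thus the highest G protein gene of the list in both libraries.

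Downstream of Gq, the phospholipase gene Plcb1 had 43.89 and 45.63 TPM and Plcb4 10.37 and 9.21. Itpr1, the main neuronal calcium release channel, had 41.53 and 43.62 TPM and Itpr2 11.9 and 11.02. Plcb4 was lower in replicate 2, at −0.34 ± 0.09 (adjusted p = 0.00071), while Plcb1, Itpr1 and Itpr2 were higher. The kinase gene Prkca had 59.52 and 66.65 TPM, and Dagla, which makes the endocannabinoid released after group I receptor activation, 44.75 and 51.9. Both were higher in replicate 2. Of the TRPC channel genes, Trpc1 had 22.55 and 21.35 TPM and Trpc5 19.7 and 18.5, and neither passed the test.

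Of the scaffolds that tie Grm5 to the postsynaptic density, Shank1 had 192.18 and 193.05 TPM, Shank3 96.62 and 101.13, and Homer1, which binds the Grm5 tail, 58.82 and 58.18. Mean levels of the 11 scaffolds ran from 12.75 to 192.6 TPM. Cyth2, an exchange factor for Arf proteins, had 78.68 and 76.66. Of the 11 scaffolds, 5 were higher and 1 was lower in replicate 2, against 15.7% and 11.5% of genes tested. The lower was Pick1, the PDZ protein that binds the group III tail of Grm7, at 24.14 and 19.48 TPM and −0.23 ± 0.07 (adjusted p = 0.0057), named after its values were seen.

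The trans-synaptic partners of group III receptors, Elfn2 and Elfn1, had 55.68 and 57.58 TPM and 15.8 and 13.71 TPM. In these tables Elfn2 stood above all 3 group III receptors in both libraries, but in the read-based table of replicate 1 it had 59.7 TPM against 60.4 for Grm7. Among binding and desensitising proteins, Ncdn, which binds the tail of Grm5, had 326.63 and 437.6 TPM and was higher in replicate 2 by 0.54 ± 0.01. Arrb1 had 84.12 and 83.76 TPM, Rgs4, which limits Gq signalling, 63.15 and 70.47, and Grk2 64.28 and 67.33.

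Genes that overlap the receptors were counted, since no source used here says whether the authors counted by strand. At Grm5, 5 of 6 overlapping genes had counts, 417 and 400 in sum against 11522 and 12312 for Grm5, and the highest was Gm44846 at 3.14 and 2.93 TPM. Those 5 lie on the strand of Grm5 and overlap none of its exons. At Grm7, the 2 overlapping genes had 76.48 and 70 counts in sum. The highest by mean TPM, Gm20386, rested on 3.48 and 0 counts. The other gene there lies on the opposite strand, overlaps an exon of Grm7 and had 73 and 70 counts. At Grm3, Gm42455 had 15 and 5 counts, at Grm4, Gm49790 had 2 and 1, and at Grm8, Gm42801 had 1 and 1. The single overlapping gene of Grm2, Gm28111, had 0 in both. Outside Grm5 and Grm7 the overlapping genes thus held at most 15 counts per library.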

How the data were processed

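Total RNA of 2 libraries was used, with 1 gene table, 1 alignment-based and 1 read-based transcript table per library, on build mm10 with annotation M21 per the notes beside the files. The table layouts are those of RSEM and kallisto, and the authors' programs were not given in the sources used here. Expected counts are deposited estimated reads with no normalization, and were rounded for the test. TPM was scaled by the authors to the same sum in every library with spike-ins among the entries, and deposited FPKM served in 1 alternative. The percent of a gene's TPM per transcript, as deposited, and the authors' credibility intervals of TPM were used as given. Read-based values were summed per gene.

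Libraries were compared by the exact conditional binomial test (10 or more counts in sum, pseudocount of 0.5 counts) with TMM factors from edgeR 4.0.16; DESeq2 1.42.0 gave the size factors of an alternative only. Python 3.11.15, pandas 2.3.3, scipy 1.17.1 and Biopython 1.88 were used with R 4.3.3. On simulated counts of 20245 genes, 100 of 100 genes raised 4-fold, 100 of 100 lowered 4-fold and 3 unchanged genes were called. These counts carried counting error only, and the changed genes were drawn from those with at least 100 expected counts. Smaller changes and variation between pools were not simulated.

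The members and lists were chosen with earlier results of these data known. Named genes were the members, other Grm genes, up to 4 genes per pathway role and 3 per marker list by mean TPM, the highest overlapping gene per member, and transcripts at 10% or more of their gene. Not every gene this selects is described, and some are not reported here, though all enter the counts and sums. A planned comparison of protein sequences was replaced by coding bases. The p-values cover counting error between these 2 libraries. Sequences came from GENCODE M21 transcripts.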

Additional observations from a re-analysis of the deposited data

How the results depend on the processing

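The 8 ratios between neighbours and groups kept their direction and stayed above 2 SD under every pseudocount and table run. With either replicate left out they kept their direction, and a single library gives no SD. The count of 0 receptors called was the same under the scalings, filter, table and pseudocount run, and was not run with a replicate left out, since it needs both libraries. Values in TPM moved with the unit, as FPKM and the read-based table scale differently. Between the libraries, Grm5 turned to −0.016 with total counts, −0.22 with ERCC totals and −0.064 as a ratio of TPM, the last chosen after seeing the data, as was the Grm8 ratio without its non-coding transcripts. ERCC totals gave 1276 calls (88 higher, 1188 lower) in place of 582 (118 higher, 464 lower). Shares depended on the table and quantity. The read-based tables gave 50.0% for Grm2-201, 74.5% for Grm4-201, 30.6% for Grm5-202, 50.6% for Grm7-202 and 30.6% for Grm8-202, and 46.5% and 45.0% of full-length coding transcripts for Grm2-203 and Grm5-204. Shares of expected counts were 75.7% for Grm2-201, 97.6% for Grm4-201, 68.5% for Grm5-202 and 52.3% for Grm8-202. The cause was not tested. Depth limits Grm8 most, at 269 and 178 counts. No paired analysis was possible because the series has 1 group.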
